A study of Mus musculus with 6 samples.

Results

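The genes described here were the growth factors Vegfa and Vegfb, their receptors Kdr and Flt1, the angiopoietins Angpt1 and Angpt2, the Tie receptors Tek and Tie1, and the endothelial junction genes Pecam1 and Cdh5. They were chosen by name, as 10 of the 54532 genes in the count table, and all 10 passed the filter on low counts. RNA was sequenced from the left ventricle of male mice 4 weeks after aortic banding (AB), an operation that narrows the aorta and loads the heart with pressure, with 3 libraries in each group. TG mice, labelled HINT2CTG-Myh6Cre, carried a CAG-HINT2 transgene and a tamoxifen-driven Myh6Cre, which is active in cardiomyocytes, and had received 5 mg/kg of tamoxifen a day for 7 days. NTG mice, labelled C57BL/6J, lacked the transgene. Mice were 8 to 10 weeks old at the operation. Whether the NTG mice carried Cre or received tamoxifen is not given in the sources used here, so the transgene, Cre and tamoxifen cannot be told apart, and no library came from mice without AB. Per the study's methods the libraries came from 3 hearts in each group, so the p-values measure the spread between these mice.

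Vegfa is the growth factor that drives sprouting, survival and permeability of endothelial cells, and in the heart much of it is made by cardiomyocytes. It signals mainly through Kdr, while Flt1 binds Vegfa tightly with little signalling and, in a soluble form, acts as a decoy. Vegfb binds Flt1 and not Kdr, and is abundant in heart muscle. The angiopoietins act in a second pathway on the same cells. Angpt1, made largely by perivascular cells, activates Tek and keeps vessels quiet, Angpt2, made by endothelial cells, can oppose it, and Tie1 is a partner of Tek with no ligand of its own that is agreed on. Pecam1 and Cdh5 (VE-cadherin) hold endothelial cells together, and their RNA is often read as a measure of how much endothelium a sample holds.

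The NTG libraries held 14863568 to 17581220 counts each, the TG libraries 14944465 to 17235802. Hint2, the gene of the transgene, had 12, 545 and 559 counts in NTG libraries 1 to 3 and 793, 828 and 859 in TG libraries 1 to 3. The library labelled NTG 1 was thus far below its own group for Hint2, so that this gene goes against its label and what the library is was not settled here. On the first principal component of all genes it lay at -5.08, between NTG libraries 2 and 3 (55.7 and 29.3) and the TG libraries (-36.5 to -10.7). The values of the 10 genes are therefore also given without it. With 6 libraries the Hint2 difference did not pass the test (log2 fold change 1.33, edgeR adjusted p = 0.433), and without the library labelled NTG 1 it did (0.77, edgeR adjusted p = 0.0212).

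None of the 10 genes passed the test between TG and NTG. A call needed a log2 fold change beyond 0.5 in either direction together with a Benjamini-Hochberg adjusted p below 0.05 in edgeR's quasi-likelihood test. No gene of the 14774 tested did (0%), and the smallest adjusted p of all was 0.196. DESeq2 called 3.95% of the genes under the same limits, and neither it, limma-voom nor edgeR's likelihood-ratio test called any of the 10 with all 6 libraries. At an unadjusted p under 0.05, edgeR held 2 of the 10 (20%), Vegfa and Kdr, both higher in TG, beside 18.6% of all genes, and DESeq2 also held 2. That count in edgeR was 0 with library size alone and without NTG library 2, TG library 1 or TG library 2, 1 without NTG library 3, and 4 without the library labelled NTG 1. The groups did not overlap for 3 of the 10 (30%), Kdr, Angpt2 and Tie1, all higher in TG, beside 23.5% of all genes (11.2% higher, 12.3% lower). In either direction these shares lie near those of all genes. In the higher direction alone all genes held 8.83% at that p and 11.2% apart, and the 10 were not tested as a set. Fitted differences were above 0 for 7 genes and below 0 for 3, with a median log2 fold change of 0.24 (0.13 without NTG library 2, 0.16 with library size alone) beside -0.0081 over all genes, and adjusted p ran from 0.217 to 0.994 in edgeR and from 0.0988 to 0.995 in DESeq2. In an exact two-sided permutation test on log2 values, 3 libraries against 3 cannot go below p = 0.1, the value of Kdr, Angpt2 and Tie1, and the other 7 lay between 0.2 and 1. When libraries were scaled by their size alone, Cdh5 also came below 0.

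**Figure D1:**
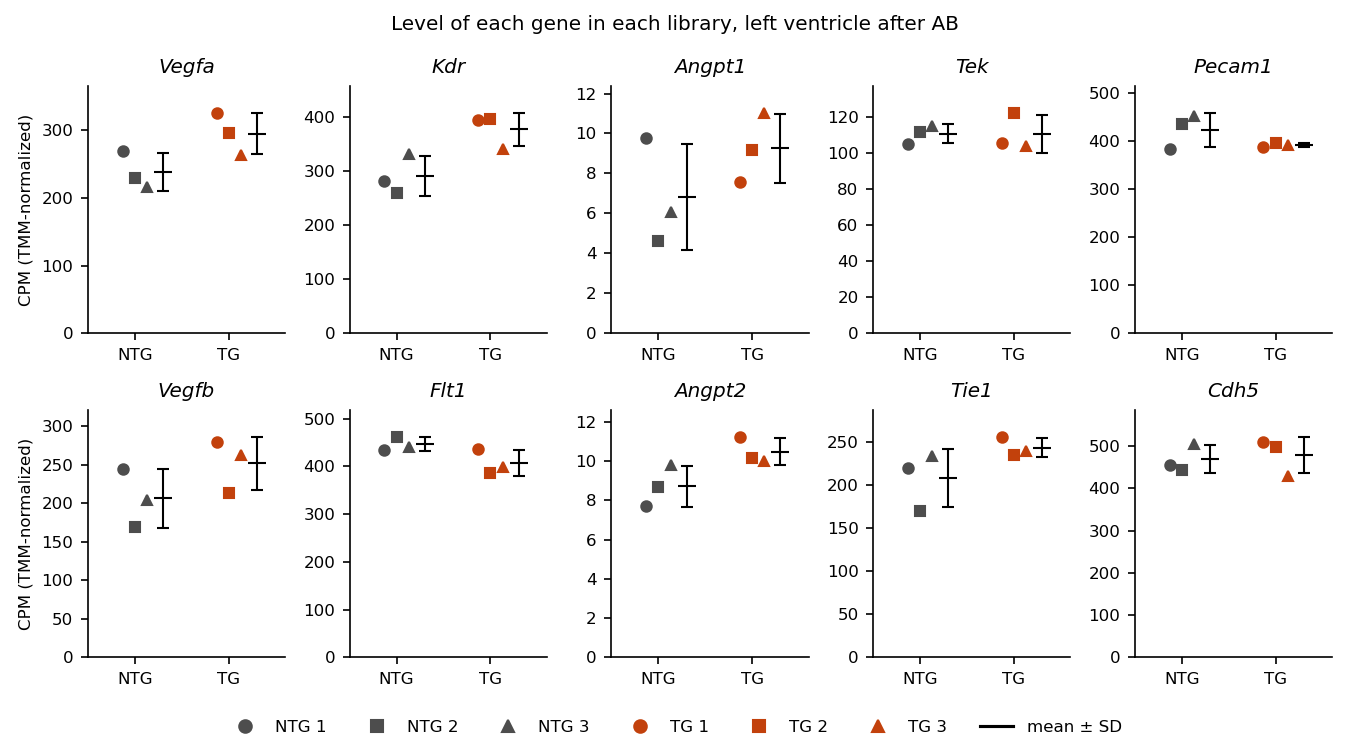
Level of each of the 10 genes in each library, in TMM-normalized CPM (linear axes that start at 0), for NTG (grey) and TG (orange); circles, squares and triangles are libraries 1, 2 and 3 of a group, and the bar beside them is the mean ± SD. The 3 TG points lie above the 3 NTG points for Kdr, Angpt2 and Tie1, and the groups overlap for the other 7.

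Of the VEGF ligands, Vegfa (ENSMUSG00000023951, chr17:46016993-46032369, minus strand) was at 269.7, 229 and 216 CPM (counts scaled to library size with TMM factors) in NTG libraries 1 to 3 and at 326, 295 and 264 in TG libraries 1 to 3. The groups overlapped only through the library labelled NTG 1, which was above TG library 3. Means were 238 ± 28.2 CPM in NTG and 295 ± 31.0 in TG (SD, n = 3). The log2 fold change was 0.31 (SE 0.13, 95% interval 0.0078 to 0.61, edgeR adjusted p = 0.259), and the DESeq2 adjusted p was 0.201. Without the library labelled NTG 1 it was 0.41 with an edgeR adjusted p of 0.0972, and leaving out any other library gave 0.23 or more. Vegfb (ENSMUSG00000024962, chr19:6982473-6987651, minus strand) was at 245, 169 and 205 CPM in NTG and at 279.7, 213 and 263 in TG. TG library 2 fell within the NTG range here, and the library labelled NTG 1 was again the highest of its group. The log2 fold change was 0.29 (SE 0.16, 95% interval -0.087 to 0.66, edgeR adjusted p = 0.367), 0.43 without the library labelled NTG 1 (edgeR adjusted p = 0.125) and 0.16 without NTG library 2. In library 1 of each group both ligands were at their highest. Library 1 also had the fewest counts and the highest mitochondrial share of counts in its group (19.2% in NTG, 21.5% in TG), and their part was not tested.

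The proportion of the ligands to each other overlapped between the groups. The ratio of Vegfa to Vegfb counts within a library, which does not depend on scaling between libraries, was 1.10, 1.35 and 1.05 in NTG and 1.16, 1.39 and 1.004 in TG, with a log2 difference of 0.015. In bulk tissue, fewer cells of a type and less RNA per cell cannot be told apart. Markers of cardiomyocytes, a main source of both ligands in heart, had fitted differences of the same sign as the ligands. Of these markers 9 of 9 were above 0, with a median log2 fold change of 0.48 (0.30 without NTG library 2). Their summed level was 25660 to 42306 CPM in NTG and 40096 to 49207 in TG, which overlapped. With all 6 libraries neither edgeR nor DESeq2 called any of them. At an unadjusted p under 0.05 in edgeR, 2 were higher (all genes: 8.83% higher). No cardiomyocyte marker was at 0 in every library, and their part in the ligands' values was not tested.

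The VEGF receptors had fitted differences of opposite sign. Kdr (ENSMUSG00000062960, chr5:75932827-75978458, minus strand) was at 283, 260.3 and 333 CPM in NTG and at 395, 397 and 342 in TG, so that every TG library was above every NTG library. TG library 3 and NTG library 3 were close to each other. Means were 292 ± 37.1 CPM in NTG and 378 ± 31.1 in TG (SD, n = 3), a log2 fold change of 0.37 (SE 0.13, 95% interval 0.069 to 0.68, edgeR adjusted p = 0.217). The DESeq2 adjusted p of 0.0988 was the lowest of the 10 genes with all libraries. The value was 0.35 without the library labelled NTG 1 (edgeR adjusted p = 0.181), and it lay between 0.30 and 0.48 when any library was left out. Flt1 (ENSMUSG00000029648, chr5:147561604-147726011, minus strand) was at 435, 463 and 442 CPM in NTG and at 437, 386 and 399 in TG. The groups overlapped through the library labelled NTG 1 and TG library 1, which were nearly equal, and the log2 fold change was -0.13 (SE 0.11, 95% interval -0.39 to 0.12, edgeR adjusted p = 0.537), and -0.22 with library size alone. Without the library labelled NTG 1 the value for Flt1 was -0.15 and its groups no longer overlapped. The counts are per gene, so the soluble and the membrane form of Flt1 were not separated.

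The ratio of Kdr to Flt1 counts within a library was 0.649, 0.563 and 0.753 in NTG and 0.904, 1.03 and 0.858 in TG. Every TG library was above every NTG library, with means of 0.655 ± 0.0954 and 0.930 ± 0.0890 (SD, n = 3) and a log2 difference of 0.51. The ratio carries no test, since it was formed from genes whose values were known. The library labelled NTG 1 was in the middle of its group for this ratio. Per 1000 CPM of 24 other genes of endothelial cells, Kdr was at 71.7, 59.4 and 72.0 CPM in NTG and at 91.2, 92.5 and 87.1 in TG, and these groups did not overlap either.

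**Figure D2:**
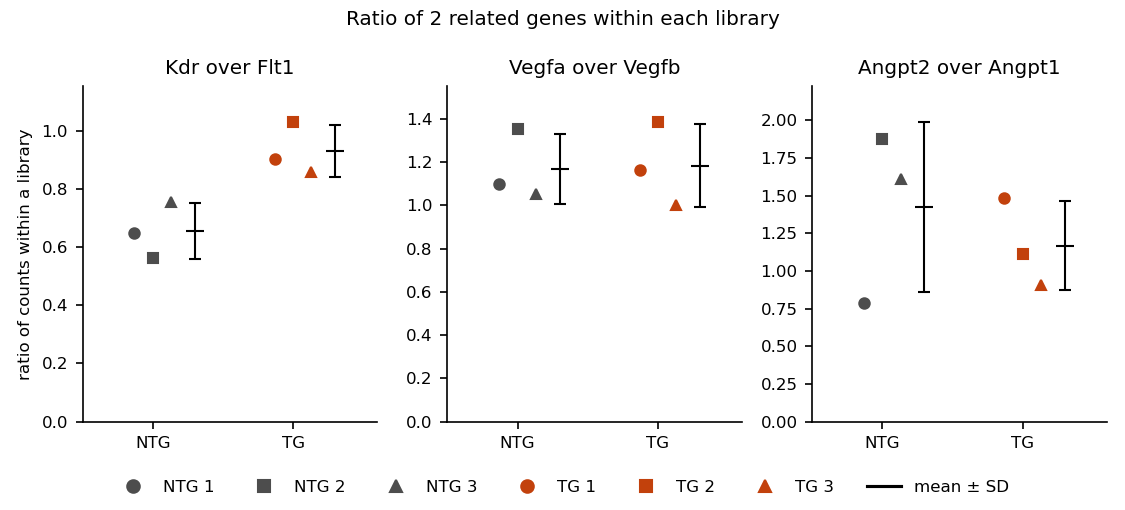
Ratio of the counts of 2 genes within each library (linear axes from 0) for NTG (grey) and TG (orange); circles, squares and triangles are libraries 1, 2 and 3 of a group, bars are mean ± SD. Kdr over Flt1 was 0.563 to 0.753 in NTG and 0.858 to 1.03 in TG, while the groups overlapped for Vegfa over Vegfb and for Angpt2 over Angpt1.

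Kdr, Flt1 and Vegfa are the genes on which the ratio above and the comparison with the hypoxia response further on turn, so the sequence just before their start is shown, taken from RefSeq (GRCm38.p6) with 250 bases each, on the gene's strand. RefSeq windows were matched for 6 of the 10 genes (7 windows, Vegfa having 2); Angpt1, Angpt2, Pecam1 and Cdh5 were not matched. Capitals mark the letters ACGTG or GCGTG (the core of sites for hypoxia-inducible factors), GATAA (GATA factors), GGGCGG (Sp1) and CCGGAAG or CAGGAAG (ETS factors), read on either strand, so that CACGC and CCGCCC are GCGTG and GGGCGG on the other strand.
Kdr, chr5:75978456-75978705, minus strand: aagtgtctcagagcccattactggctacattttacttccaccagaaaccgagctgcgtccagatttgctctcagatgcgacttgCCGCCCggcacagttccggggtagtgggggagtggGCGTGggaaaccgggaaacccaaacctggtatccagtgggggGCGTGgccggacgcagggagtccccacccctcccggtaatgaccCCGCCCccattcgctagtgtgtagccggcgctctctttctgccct
Flt1, chr5:147726012-147726261, minus strand: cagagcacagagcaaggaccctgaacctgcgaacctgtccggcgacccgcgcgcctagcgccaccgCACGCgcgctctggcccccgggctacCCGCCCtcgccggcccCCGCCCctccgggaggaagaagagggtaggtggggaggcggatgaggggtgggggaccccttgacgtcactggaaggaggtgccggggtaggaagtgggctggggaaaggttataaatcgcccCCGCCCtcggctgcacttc
Vegfa, chr17:46032378-46032627, minus strand: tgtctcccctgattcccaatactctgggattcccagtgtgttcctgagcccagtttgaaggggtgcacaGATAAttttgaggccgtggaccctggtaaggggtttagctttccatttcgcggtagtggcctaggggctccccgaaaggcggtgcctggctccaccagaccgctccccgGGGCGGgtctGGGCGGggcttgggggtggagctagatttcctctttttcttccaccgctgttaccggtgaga
The Kdr window held GCGTG with its first base at -131 and -89 from the start and Sp1 letters at -166 and -45. The Flt1 window held GCGTG once, at -184, and Sp1 letters at -158, -142 and -19. The Vegfa window held GATAA at -181 and Sp1 letters at -72 and -62, and no hypoxia core. The other Vegfa window (chr17:46025164-46025413, minus strand, not printed), before a start inside the gene, held hypoxia cores at -218 and -211 and Sp1 letters at -158. Over the 7 windows, the hypoxia core was in 4, beside 38.6% of 32851 promoter windows of the same length, the Sp1 letters in 5 (32.7%), GATAA in 1 (22.6%) and the ETS letters in 0 (17%). These are matches of letters and not sites, and a window without a match says only that the letters are not in those 250 bases.

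Both angiopoietins were low in these hearts. Angpt1 (ENSMUSG00000022309, chr15:42424723-42676977, minus strand) was at 9.76, 4.62 and 6.07 CPM in NTG and at 7.57, 9.15 and 11.0 in TG. The library labelled NTG 1 was above 2 of the 3 TG libraries, and the other NTG libraries were below all of them. The log2 fold change was 0.45 (SE 0.29, 95% interval -0.21 to 1.11, edgeR adjusted p = 0.414), the widest interval of the 10 genes. Its value turned on single libraries: it was 0.79 without the library labelled NTG 1 (edgeR adjusted p = 0.0788) and 0.23 without NTG library 2. DESeq2 without the library labelled NTG 1 called Angpt1 higher in TG (log2 fold change 0.80, SE 0.28, DESeq2 adjusted p = 0.0357), in a fit that called 11.7% of all genes, and the same libraries in edgeR called 5.52% of all genes and none of the 10.

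Angpt2 (ENSMUSG00000031465, chr8:18690263-18741562, minus strand) was at 7.71, 8.66 and 9.78 CPM in NTG and at 11.3, 10.2 and 10.0004 in TG. The groups did not overlap, although NTG library 3 and TG library 3 differed by less than the SD of either group. The log2 fold change was 0.26 (SE 0.15, 95% interval -0.080 to 0.61, edgeR adjusted p = 0.368), and 0.18 without the library labelled NTG 1. Angpt2 lies within Mcph1, a gene on the other strand, which had 72 to 111 counts in the NTG libraries and 81 to 88 in the TG libraries, while the strand setting of the counting is not given in the sources used here, so reads of the genes may not be fully separated. The ratio of Angpt2 to Angpt1 counts was 0.790, 1.87 and 1.61 in NTG and 1.49, 1.11 and 0.905 in TG. The groups overlapped for this ratio through the library labelled NTG 1, which was the lowest of all 6, while NTG libraries 2 and 3 were the highest.

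Tek (ENSMUSG00000006386, chr4:94739289-94874976, plus strand), the receptor of both angiopoietins, was at 105, 112 and 115 CPM in NTG and at 105, 123 and 104 in TG. Means were 111 ± 5.24 and 111 ± 10.4 CPM (SD, n = 3), and the log2 fold change was -0.0016 (SE 0.10, 95% interval -0.23 to 0.23, edgeR adjusted p = 0.994), with a sign that turned under other scalings. Without the library labelled NTG 1 it was -0.041. The interval lies within the limit of 0.5 that a call asked for, in both directions. Tie1 (ENSMUSG00000033191, chr4:118471191-118490061, minus strand) was at 220.2, 170.3 and 233.6 CPM in NTG and at 256, 234.3 and 239.8 in TG. The groups did not overlap, but NTG library 3 and TG library 2 were nearly equal. NTG library 2 was the lowest of the 6, and without it the log2 fold change of 0.23 (SE 0.13, 95% interval -0.083 to 0.54, edgeR adjusted p = 0.385) was 0.10, while it was 0.15 with library size alone. Without the library labelled NTG 1 it was 0.27 (edgeR adjusted p = 0.287).

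The junction genes were read for the endothelial RNA in the libraries, and how well they measure it was not tested. Pecam1 (ENSMUSG00000020717, chr11:106654217-106750628, minus strand) was at 383, 435 and 452 CPM in NTG and at 387, 396 and 392 in TG. The 3 TG libraries lay close together, with an SD of 4.27 CPM, inside the NTG range. The log2 fold change was -0.11 (SE 0.11, 95% interval -0.38 to 0.15, edgeR adjusted p = 0.617), -0.18 without the library labelled NTG 1 (edgeR adjusted p = 0.363), -0.064 without NTG library 3 and -0.20 with library size alone. Cdh5 (ENSMUSG00000031871, chr8:104101625-104144511, plus strand) was at 456, 443 and 506 CPM in NTG and at 510.5, 497 and 429 in TG. TG library 3 was the lowest of all and TG library 1 the highest, and the log2 fold change was 0.033 (SE 0.13, 95% interval -0.26 to 0.32, edgeR adjusted p = 0.907). Its sign depended on the scaling and on single libraries (-0.051 with library size alone, -0.018 without TG library 1), and it was 0.012 without the library labelled NTG 1. For both junction genes the interval lay within the limit of 0.5.

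**Figure D3:**
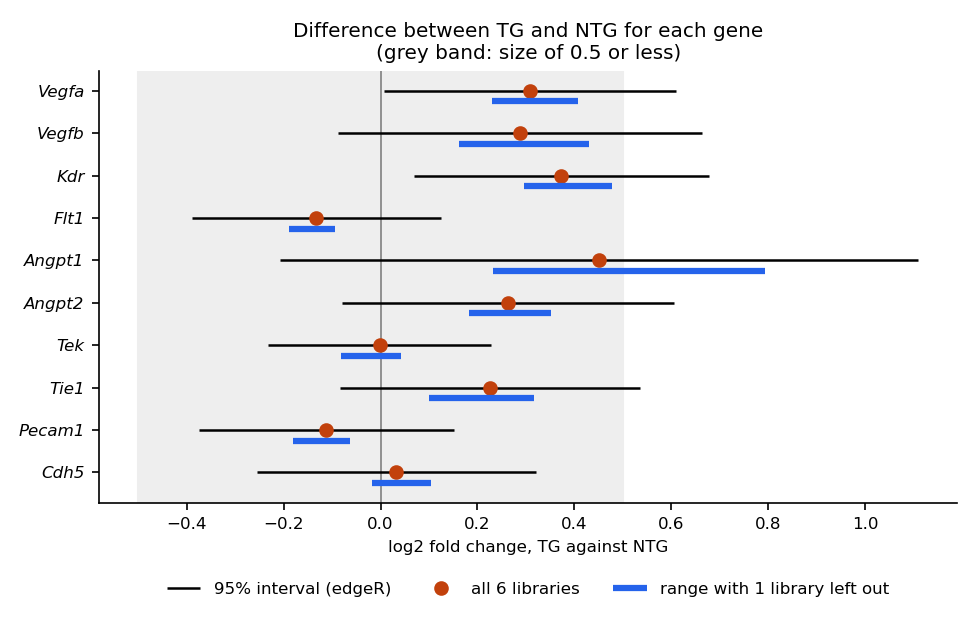
Log2 fold change of TG against NTG for each of the 10 genes in the edgeR fit (points), with 95% intervals (black lines) and, below each, the range of the value when any 1 of the 6 libraries was left out (blue bars); the grey band spans sizes up to 0.5. Only the intervals of Vegfa and Kdr exclude 0, and the blue bar of Angpt1 (0.23 to 0.79) is the longest.

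The other pan-endothelial markers (24, all measured) had a summed level of 3941 to 4619 CPM in NTG and 3928 to 4329 in TG. Of them, 13 had a fitted difference above 0 and 11 below, and the median log2 fold change was 0.022 (-0.065 with library size alone, -0.066 without the library labelled NTG 1). Relative to that sum, the groups were apart for Kdr and for Angpt2 (2.02 ± 0.0870 CPM per 1000 in NTG and 2.50 ± 0.120 in TG, SD, n = 3) and overlapped for the other 8 genes. The share of all genes apart on that scale was not computed, and in plain CPM it was 23.5%. Markers of other cells were read in the same way, and edgeR called none of them, while DESeq2 called 4 of 7 fibroblast and 4 of 5 erythroid markers lower and 1 of 8 mural markers higher. Summed levels were apart between the groups for fibroblast and erythroid markers and overlapped for the others. Fibroblast markers summed to 3753 to 8164 CPM in NTG and 1876 to 3209 in TG (7 of 7 below 0), macrophage markers to 469 to 909 and 369 to 520 (6 of 6 below 0), and erythroid markers to 1310 to 2245 and 762 to 908 (5 of 5 below 0). Markers of mural cells, a source of Angpt1, summed to 1488 to 1879 CPM in NTG and 1642 to 1960 in TG, with 4 of 8 above 0. Neutrophil markers summed to 9.42 to 233 CPM in NTG and 8.64 to 16.8 in TG (4 of 4 below 0), lymphocyte markers to 1.33 to 4.92 and 3.32 to 4.01, platelet markers to 23.7 to 37.4 and 27.1 to 34.1, and mesothelial markers to 23.4 to 41.8 and 23.2 to 35.1. Atrial markers reached 67.4 CPM in the library labelled NTG 1 and 167 in TG library 3, against 2.18 in the lowest library. None of these markers was at 0 in every library, and their part in the values of the 10 genes was not tested.

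Leaving out the library labelled NTG 1 separated the groups for 8 of the 10 genes (80%; 6 higher and 2 lower in TG, all but Tek and Cdh5), beside 47% of all genes. In that fit the edgeR adjusted p of the 10 genes was at its lowest for Angpt1 and Vegfa, as given above.

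Levels of different genes were compared per kilobase (kb) of exon length. In NTG the order was Vegfb (128 CPM per kb), Cdh5 (111), Pecam1 (68.0), Vegfa (55.5), Tie1 (42.3), Flt1 (33.1), Kdr (32.3), Tek (23.5), Angpt2 (2.36) and Angpt1 (1.31). The NTG libraries overlapped between Vegfb and Cdh5, between Pecam1 and Vegfa, and between Flt1 and Kdr, and were apart for all other neighbours. In TG, Vegfb (157), Cdh5 (114), Vegfa (68.8), Pecam1 (62.9), Tie1 (49.5), Kdr (41.9), Flt1 (30.2), Tek (23.5), Angpt2 (2.84) and Angpt1 (1.78) followed each other. There the libraries overlapped only between Vegfa and Pecam1. Kdr and Flt1 thus shared a place in NTG and were apart in TG, and Angpt2 lay above Angpt1 in both groups. The length is that of all exons of a gene merged, so the order depends on which transcripts are in use.

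Other genes of these pathways, 175 of which were tested beside the 10, were read from the same fit. edgeR called 0 of them and DESeq2 called 4 higher and 12 lower in TG, where DESeq2 called 1.54% of all genes higher and 2.4% lower. Among the other VEGF ligands and co-receptors (6 tested), 1 had a fitted difference above 0 and 5 below, with a median log2 fold change of -0.13 (-0.27 without the library labelled NTG 1). Vegfd, a ligand of the lymphatic receptor Flt4, was at 4.41 ± 0.821 CPM in NTG and 2.34 ± 0.202 in TG (log2 fold change -0.91, edgeR adjusted p = 0.196, DESeq2 adjusted p = 0.0545), and its groups did not overlap. Vegfc, which binds the same receptor, had a log2 fold change of -0.51 (edgeR adjusted p = 0.293). Both lymphatic ligands were thus lower in every TG library than in every NTG library, and Vegfa and Vegfb were not.

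The signal transducers of the VEGF and Tie receptors (17 tested) lay around 0, with 9 above and 8 below and a median of 0.0064 that was -0.073 with library size alone. Akt1, a kinase downstream of both receptor families, was at 232 ± 30.2 CPM in NTG and 302 ± 25.8 in TG (log2 fold change 0.38, edgeR adjusted p = 0.215). Ptprb (VE-PTP), the phosphatase that restrains Tek, was at 545 ± 93.3 CPM in NTG and 394 ± 58.7 in TG (log2 fold change -0.47, edgeR adjusted p = 0.224). Neither gene's groups overlapped. The angiopoietin-like genes and Angpt4 (6 tested) had 3 above and 3 below 0. DESeq2 called Angptl7 lower in TG, at 44.8 ± 6.73 CPM in NTG and 12.5 ± 9.15 in TG (log2 fold change -1.82, DESeq2 adjusted p = 0.00168, edgeR adjusted p = 0.196), and Angptl6, low in all libraries, had a log2 fold change of 0.75 (edgeR adjusted p = 0.226). The median of this list was -0.15 and turned to 0.12 without the library labelled NTG 1 and to 0.058 without TG library 2, and was -0.83 without TG library 3.

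Vegfa is a classical target of hypoxia-inducible factors, and most other target genes of these factors had fitted differences of the opposite sign. These are RNA values, and the activity of hypoxia-inducible factors was not measured in these libraries. Of 18 other hypoxia target genes, 17 had a fitted difference below 0 and 1 above, where 51.3% of all genes were below 0, and the median log2 fold change was -0.29 (-0.47 without the library labelled NTG 1, -0.19 without NTG library 2). At an unadjusted p under 0.05, 6 were lower and 0 higher in edgeR (all genes: 9.76% lower, 8.83% higher), and DESeq2 called 3 lower. Ndrg1, a stress-response gene, was at 102 ± 28.8 CPM in NTG and 58.7 ± 3.27 in TG (log2 fold change -0.79, DESeq2 adjusted p = 0.0114, edgeR adjusted p = 0.196), and Bnip3, a gene of mitochondrial removal, at 148 ± 29.4 and 101.0 ± 7.93 CPM (-0.55, DESeq2 adjusted p = 0.0463, edgeR adjusted p = 0.196). The third, Slc2a1, the glucose transporter GLUT1, is named because DESeq2 called it (log2 fold change -1.16) and was chosen after its values were seen.

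Of 9 genes of the hypoxia-inducible factor pathway itself, 4 were above and 5 below 0, with a median of -0.23 that came to -0.050 without TG library 2 and -0.12 without NTG library 2. Hif1a, the oxygen-regulated subunit, was at 129.8, 212 and 132 CPM in NTG and at 86.0, 98.8 and 80.1 in TG (log2 fold change -0.84, DESeq2 adjusted p = 0.00793, edgeR adjusted p = 0.196). DESeq2 called it lower, and NTG library 2 was far above the rest. Egln3, the hydroxylase that marks HIF for breakdown and is itself a target, was at 119 ± 18.0 CPM in NTG and 86.2 ± 2.95 in TG (log2 fold change -0.47, edgeR adjusted p = 0.196), under the limit of 0.5. In the TG libraries Hif1a, Egln3, Ndrg1 and Bnip3 were below their own mean over the 6 libraries, and Vegfa was above its mean in TG libraries 1 and 2 and at -0.00040 in TG library 3. In NTG libraries 2 and 3 this was turned around, and in the library labelled NTG 1 all 5 genes lay between -0.086 and 0.16 of their mean (log2). These 4 genes had the lowest p of their lists for TG against NTG, so their split by group follows from how they were picked and is a description. Fibroblast, macrophage and neutrophil markers, whose summed levels are given above, were also at their highest in NTG library 2 (8164, 909 and 233 CPM), and their part in the values of the hypoxia genes was not tested.

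**Figure D4:**
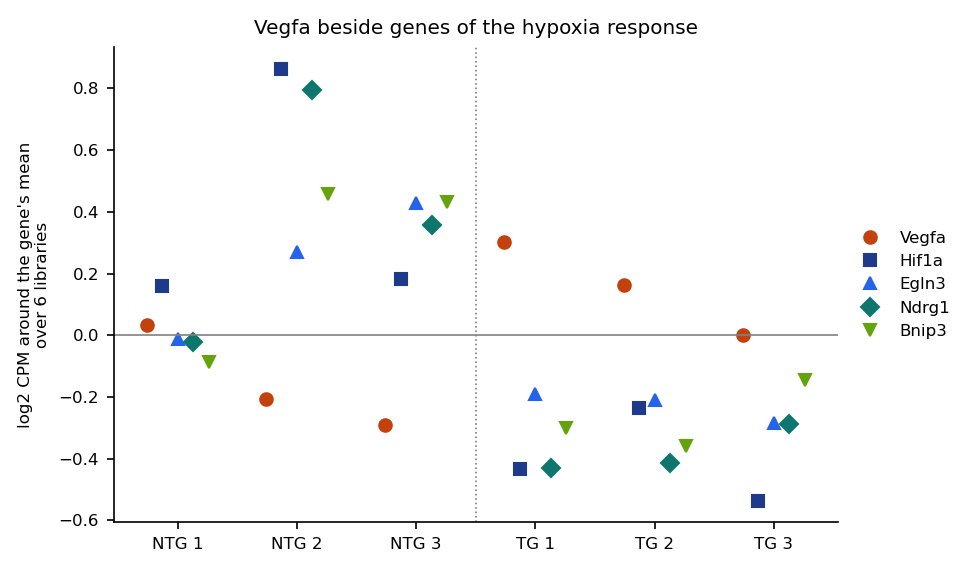
Vegfa and 4 genes of the hypoxia response, picked as those with the lowest p of their lists, in each library, as log2 CPM around the gene's own mean over the 6 libraries; colours and shapes are genes, and points of 1 library are spread sideways to keep them apart. Vegfa was at -0.21 and -0.29 in NTG libraries 2 and 3, where Hif1a was at 0.86 and 0.18, and at 0.30, 0.16 and -0.00040 in TG libraries 1 to 3, where Hif1a was at -0.43, -0.23 and -0.54.

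Notch and ephrin genes, which set tip cells and arteries apart (16 tested), had 12 above and 4 below 0 and a median log2 fold change of 0.21 (0.13 without NTG library 2). None was called by either tool with all 6 libraries, while 4 were higher and 1 lower at an unadjusted p under 0.05 in edgeR (all genes: 8.83% higher, 9.76% lower). Without the library labelled NTG 1 edgeR called 1 of the 16 higher, in a fit that called 5.52% of all genes. Efnb1, an ephrin ligand, was at 32.8 ± 7.84 CPM in NTG and 49.7 ± 4.39 in TG (log2 fold change 0.60, edgeR adjusted p = 0.196, DESeq2 adjusted p = 0.0561), and Hey2, a Notch target, at 5.51 ± 0.740 and 3.65 ± 0.342 CPM (-0.59, edgeR adjusted p = 0.213). Among the other angiogenic ligands and receptors (20 of 21 tested), 8 were above and 12 below 0, and DESeq2 called 1 higher and 3 lower. Slit2, a guidance ligand for Robo receptors, was at 13.2 ± 4.58 CPM in NTG and 6.35 ± 0.934 in TG (log2 fold change -1.06, DESeq2 adjusted p = 0.0130, edgeR adjusted p = 0.196), and Met, the receptor of hepatocyte growth factor, at 4.72 ± 0.366 and 2.31 ± 0.857 CPM (-1.02, DESeq2 adjusted p = 0.0497, edgeR adjusted p = 0.196). The median of -0.28 came to -0.053 without TG library 3, to -0.455 without TG library 2 and to -0.44 without the library labelled NTG 1. Inhibitors of angiogenesis (12 of 13 tested) had 3 above and 9 below 0 and a median of -0.40 (-0.22 without TG library 3). DESeq2 called Serpinf1 lower, the secreted inhibitor PEDF, at 244 ± 74.4 CPM in NTG and 97.4 ± 36.2 in TG (log2 fold change -1.33, DESeq2 adjusted p = 0.00113, edgeR adjusted p = 0.196). Thbs2, a matrix inhibitor, was at 43.1 ± 15.1 and 25.9 ± 1.52 CPM (-0.74, edgeR adjusted p = 0.207). The summed level of fibroblast markers, given above, was lower in every TG library beside these secreted genes, and its part was not tested.

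Genes of endothelial identity did not move as a block. The endothelial transcription factors (20 tested) had 9 above and 11 below 0, with a median log2 fold change of -0.012. It was 0.078 without NTG library 3, -0.083 without the library labelled NTG 1 and -0.10 with library size alone. Sox7 was at 45.1, 22.4 and 28.0 CPM in NTG and at 76.2, 43.4 and 62.3 in TG (log2 fold change 0.93, edgeR adjusted p = 0.213). DESeq2 called it higher (DESeq2 adjusted p = 0.0377), and the groups overlapped through the library labelled NTG 1. Sox18, its relative, had a log2 fold change of 0.77 (edgeR adjusted p = 0.244) with the same order of libraries within each group. Of the 24 pan-endothelial markers DESeq2 called 1, Myct1, at 19.1 ± 2.20 CPM in NTG and 32.1 ± 6.95 in TG (log2 fold change 0.75, DESeq2 adjusted p = 0.0143, edgeR adjusted p = 0.196), and Ushbp1 had a log2 fold change of 0.33 (edgeR adjusted p = 0.204). Capillary markers (10 tested) had 7 above and 3 below 0 and a median of 0.15, which came to 0.016 without TG library 1 and 0.26 without NTG library 3. Tcf15, a factor of heart capillaries, was at 30.4, 8.18 and 17.0 CPM in NTG and at 54.0, 32.3 and 45.6 in TG (log2 fold change 1.26, DESeq2 adjusted p = 0.0381, edgeR adjusted p = 0.226), with every TG library above every NTG library. Car4, of the capillary surface, had a log2 fold change of 0.93 (edgeR adjusted p = 0.249). For Tcf15, Sox7 and Sox18, as for Vegfb, library 1 was the highest and library 2 the lowest of each group. The summed level of cardiomyocyte markers (42306, 25660 and 34879 CPM in NTG, 49207, 40096 and 47873 in TG) stood in the same order. So did the mitochondrial share of counts (19.2, 13.4 and 14.3% in NTG, 21.5, 16.0 and 20.3% in TG). Total counts stood in the reverse order (14863568, 17581220 and 16785031 in NTG, 14944465, 17235802 and 16807806 in TG). These genes were picked after their order was seen, and the part of cells, depth or scaling was not tested.

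**Figure D5:**
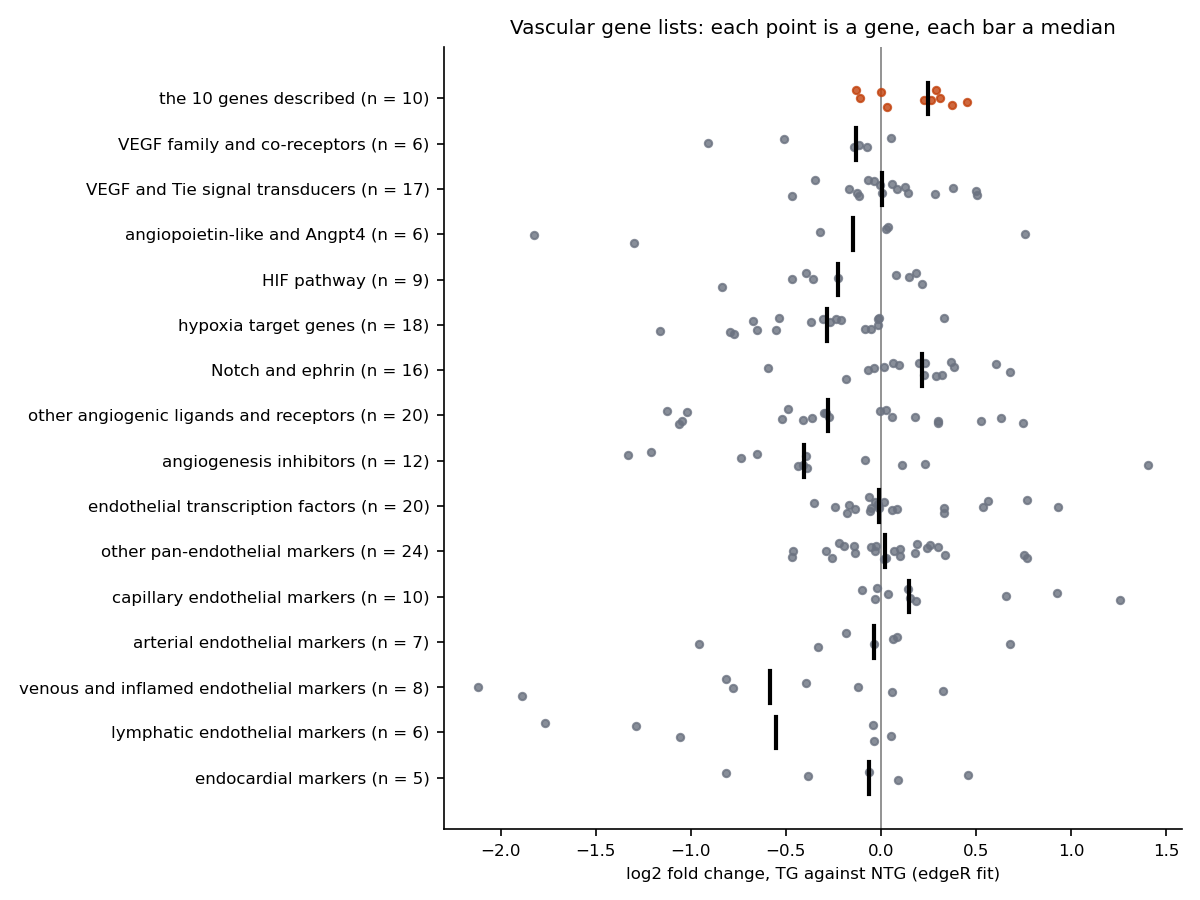
Log2 fold change of TG against NTG for each gene (point) of the 10 genes described (orange) and of 15 lists of related genes (grey), with the median of each list as a black bar; points are spread vertically to keep them apart. The median of the 10 genes was 0.24, that of the hypoxia targets -0.29 and that of the angiogenesis inhibitors -0.40, and that of the pan-endothelial markers 0.022 (-0.065 when libraries were scaled by size alone).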

How the data were processed

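RNA from 6 left ventricles was poly-A selected and sequenced on an Illumina NovaSeq. The authors cleaned the reads and counted them per gene with featureCounts, and deposited raw counts together with each gene's exon length; per the file headers, genes carry mouse Ensembl identifiers. The submitters' processing notes also name HISAT2, DESeq2 and the human build GRCh38, with no versions, but the coordinates in the table are those of the mouse build GRCm38: 98.3% of the 54495 genes shared with GENCODE M21, and all 10 described here, were identical. The strand setting and the handling of multi-mapping reads are not given in the sources used here, and 0 sample columns were left unassigned.

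From these counts, genes were kept by filterByExpr (14774 of 54532) and tested with edgeR 4.0.16 (quasi-likelihood, robust, TMM scaling) in R 4.3.3, with Benjamini-Hochberg adjustment over all genes tested. The limits of 0.05 on the adjusted p and 0.5 on the log2 fold change are those of the study, which gives the second in its results. CPM values are TMM-normalized, and levels per kb use the deposited exon length. Groups came from the labels, with TG and NTG compared in 1 fit of 6 libraries. DESeq2 1.42.0, limma-voom (limma 3.58.1), other scalings and filters, a replicate block and leaving out each library were tried as alternatives (23 in all), and the medians and counts of the gene lists under them were added after seeing the data. Depth was 14863568 to 17581220 counts a library, the 10 genes had 87 to 8750 counts in a library, the fewest for Angpt1, and the biological coefficient of variation was 18.7% over all genes. Same-numbered libraries did not deviate together in every pair (r = 0.081, 0.17 and -0.25), so numbers were not taken as pairs.

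The 10 genes and the gene lists were chosen with earlier results of these data known. The genes named are the 10, Hint2, from each list the 2 with the lowest unadjusted edgeR p, and for Vegfa, Angpt2 and Cdh5 the 3 genes with the most similar profile. Slc2a1 and members of lists named for their counts are outside that rule.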

Additional observations from a re-analysis of the deposited data

How the results depend on the processing

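The fitted sign of 8 of the 10 genes was the same under each alternative for which a fold change per gene was kept (the DESeq2 fits without 1 library were read for calls only), and the exceptions were Tek and Cdh5, the genes nearest 0. Tek had a log2 fold change of 0.0034 with RLE size factors and 0.0035 in DESeq2, and -0.082 to 0.041 when 1 library was left out. Cdh5 was at -0.051 with library size alone and at -0.018 to 0.10 when 1 library was left out. Of the 10 genes, 1 was called in any fit: Angpt1, higher in DESeq2 without the library labelled NTG 1. Counts over all genes and over the 175 related genes depended strongly on the tool and on single libraries, and the cause was not tested. With no filter on low counts, 116 genes were called higher and 116 lower (related genes: 1 higher, 4 lower). DESeq2 called 228 higher and 355 lower (related genes: 4 and 12), and edgeR's likelihood-ratio test 206 and 339 (2 and 12). Leaving out 1 library in edgeR gave 0 to 404 higher and 0 to 432 lower, the highest without the library labelled NTG 1 (related genes: 0 to 2 and 0 to 13). In DESeq2, higher and lower calls were 896 and 877 without the library labelled NTG 1 (related genes: 9 and 26), 47 and 76 without NTG library 2 (0 and 4), 40 and 129 without NTG library 3 (0 and 8), 103 and 76 without TG library 1 (1 and 3), 292 and 486 without TG library 2 (8 and 13), and 29 and 67 without TG library 3 (0 and 4). With the replicate number as a block, edgeR called 84 higher and 147 lower (related genes: 4 and 5) and none of the 10. The numbers share only a name here, and not every library correlated best with its own number. With edgeR and 6 libraries, where 0 genes were called, 1305 were higher and 1442 lower at an unadjusted p under 0.05, and limma-voom, also with 0 calls, held 1396 and 1389. With 3 libraries a group, the 95% intervals of Flt1, Tek, Pecam1 and Cdh5 stayed within 0.5 of 0 and those of the other 6 genes reached past it.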

Other observations

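Lymphatic markers were read beside the ligands Vegfc and Vegfd, and edgeR called 0 of 6. Of these 6 lymphatic markers, 5 had a fitted difference below 0 and 1 above, with a median log2 fold change of -0.55 and a summed level of 183 to 237 CPM in NTG and 178 to 186 in TG, which overlapped. Mmrn1, a matrix protein of lymphatic endothelium, was at 18.0, 32.6 and 25.2 CPM in NTG and at 10.2, 13.3 and 13.0 in TG (log2 fold change -1.06, DESeq2 adjusted p = 0.00285, edgeR adjusted p = 0.196). Reln, a secreted protein of lymphatic vessels, was at 14.3, 27.2 and 30.9 CPM in NTG and at 9.30, 12.7 and 7.65 in TG (log2 fold change -1.29, DESeq2 adjusted p = 0.00477, edgeR adjusted p = 0.196). DESeq2 called both lower, and without the library labelled NTG 1 edgeR called 2 of the 6 lymphatic markers lower. Venous and inflamed endothelial markers (8 tested) had 2 above and 6 below 0 and a median of -0.59, which came to -0.20 without NTG library 2. Vwf was at 125, 296 and 209 CPM in NTG and at 116, 130.2 and 112 in TG (log2 fold change -0.81, edgeR adjusted p = 0.221), and Plvap had a log2 fold change of -0.78 (edgeR adjusted p = 0.256). Both genes overlapped between the groups through the library labelled NTG 1. Arterial markers (7 tested) had 3 above and 4 below 0, with a median of -0.037 that turned to 0.052 without TG library 2. That median was -0.18 without TG library 1 and -0.13 with library size alone. Fbln5, an elastic fibre gene, was at 129 ± 22.6 CPM in NTG and 66.4 ± 12.7 in TG and was called lower by DESeq2 (log2 fold change -0.96, DESeq2 adjusted p = 0.000544, edgeR adjusted p = 0.196), and Hey1 had a log2 fold change of 0.68 (edgeR adjusted p = 0.225). Endocardial markers (5 tested) had a median of -0.063 (-0.013 without TG library 3, -0.145 with library size alone), and Npr3 a log2 fold change of -0.39 (edgeR adjusted p = 0.229). The summed level of fibroblast markers was lower in every TG library than in every NTG library beside these values, and its part was not tested.

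The genes whose centred log2 CPM over the 6 libraries was most like that of Vegfa were 2310039H08Rik, Taz and Ezr, with a root mean square difference of 0.038 to 0.044 (log2) where Vegfa itself had an SD of 0.22. For Angpt2 they were Acbd6, Spen and Gm6395 (0.049 to 0.052, SD 0.19), and for Cdh5 Gtpbp3, Tcf3 and Podn (0.024 to 0.032, SD 0.11). None of these is among the 10 genes, and likeness over 6 libraries is a description of these libraries.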
